A study of Mus musculus with 6 samples.

Results

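Slc25a genes encode the mitochondrial solute carriers, and 36 of the 47 symbols starting with Slc25a in the deposited table had a mean of at least 0.5 FPKM over the 6 libraries. FPKM is a level per kilobase of gene, relative to the mapped fragments of the library. Within this family, out of 21989 symbols in all, the mean level over both groups separated the members from the rest. Just inside the threshold lay Slc25a30 with a mean of 1.13 FPKM, Slc25a2 with 0.871 and Slc25a1 with 0.551. Just outside it lay Slc25a24 with 0.346, Slc25a31 with 0.314 and Slc25a33 with 0.239. The other 8 symbols, Slc25a18, Slc25a21, Slc25a32, Slc25a41, Slc25a43, Slc25a48, Slc25a53 and Slc25a54, lay lower still.

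RNA came from the left ventricle of male C57BL/6 mice in 2 groups of 3 libraries. The ISO group received ISO at 10 mg/kg per day under the skin for 3 weeks, which the submitters describe as a way to establish heart failure. The saline group, called sham in the sample titles, received the same volume of saline by the same route. ISO is the usual short name of isoproterenol, an agonist of beta-adrenergic receptors. All animals were otherwise given as C57BL/6, with no allele or transgene named and no age stated in the labels. The samples are called biological repeats, but no animal is named. The p-values thus set each group difference against the spread among these samples only, and each value is for ventricle tissue and not for a single cell type.

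Mitochondrial carriers are small proteins of the inner membrane that exchange one solute for another between the matrix and the space outside it. In the heart, whose contraction draws almost wholly on oxidative phosphorylation, the busiest of them export ATP in exchange for ADP and bring in phosphate. Others move acylcarnitines for fatty acid oxidation, the partners of the malate-aspartate shuttle, iron and glycine for heme, and cofactors that enzymes of the matrix need. A few members lie elsewhere, such as Slc25a46 in the outer membrane and Slc25a17 in peroxisomes.

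The recovered library totals ran from 2776152 reads in saline 3 to 9862363 in saline 1. Saline 3 stood apart: its Pearson r with the other libraries over the 36 members (log2 of FPKM + 1) lay between 0.881 and 0.919, against 0.970 to 0.991 among the other 5, as a description over genes of libraries that differ in depth. It held the lowest of the 6 values for 18 members (of all 13455 genes tested, 51.7% had their lowest value there) and the highest for 10. Saline 3 lay below the mean of saline 1 and 2 by a median log2 difference of -0.16 in the 18 members with the shorter lengths and of -0.56 in the 18 with the longer lengths, and over all genes tested these medians were -0.16 and -0.52. The markers did not match a plain left ventricle label. General and ventricular cardiomyocyte markers were present in every library (31470 to 48520 FPKM summed in saline and 13360 to 23180 in ISO). The ventricular light chain Myl2, however, measured 2566, 526 and 9101 FPKM in saline and 1985, 1962 and 140.4 in ISO, while the atrial light chain Myl7 measured 16660, 16050 and 7469 FPKM in saline and 11550, 11490 and 8354 in ISO. Myl7 thus exceeded Myl2 in every library but saline 3, with the highest ratio in ISO 3, so the ventricular and atrial markers differed in proportion from library to library within both groups. The atrial list summed to between 10440 and 26430 FPKM in saline and 15160 to 18080 in ISO. Skeletal muscle markers summed to 343 FPKM in saline 3 against 18.1 to 44.7 in the other 5. Most of the saline 3 sum was Acta1 (296 FPKM), which heart muscle also makes. Mylpf (31.8 FPKM, against 2.81 to 6.58 elsewhere) and Myh1 (1.91 FPKM) were also highest in saline 3. Actn3 was lowest in saline 3, and Tnni2 and Tnnt3 were highest in ISO 3. Adipocyte markers summed to 1656 FPKM in ISO 3 against 221 to 579 in the others. Most of the ISO 3 sum was Cfd (1264 FPKM). Adipoq, Plin1 and Cidec were also highest in ISO 3, while Ucp1 and Cidea were highest in saline 3 (172 and 62.2 FPKM). Results below are therefore given with and without saline 3 where it moves them. In whole tissue, fewer cells of a type and less RNA per cell cannot be told apart.

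The only 3 of the 36 members whose ISO values all lay below their saline values were Slc25a4, Slc25a3 and Slc25a20 (3.77% of all genes tested did so). The stretches directly upstream of these genes are shown because no other member lay wholly below saline. They are RefSeq windows on GRCm38.p6, read 5′ to 3′ on each gene's strand and limited to bases outside the gene, at chr8:46211063-46211312 (minus strand), chr10:91124047-91124217 (minus strand) and chr9:108661886-108662135 (plus strand).
Slc25a4: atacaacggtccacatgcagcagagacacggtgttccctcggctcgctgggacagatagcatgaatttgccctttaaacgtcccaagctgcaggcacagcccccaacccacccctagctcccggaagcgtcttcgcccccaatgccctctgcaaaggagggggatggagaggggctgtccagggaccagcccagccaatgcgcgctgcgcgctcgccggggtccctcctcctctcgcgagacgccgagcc
Slc25a3: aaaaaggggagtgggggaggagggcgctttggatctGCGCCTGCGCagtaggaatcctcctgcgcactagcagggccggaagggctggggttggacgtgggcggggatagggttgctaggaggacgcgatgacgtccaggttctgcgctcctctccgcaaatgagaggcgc
Slc25a20: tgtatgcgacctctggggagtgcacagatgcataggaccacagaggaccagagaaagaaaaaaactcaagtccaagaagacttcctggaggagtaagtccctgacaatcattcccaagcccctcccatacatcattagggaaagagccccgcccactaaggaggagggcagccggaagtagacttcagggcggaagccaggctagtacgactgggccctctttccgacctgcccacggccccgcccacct
Capitals mark a match to the palindromic motif of nuclear respiratory factor NRF1, which drives many mitochondrial genes. Motifs were searched on both strands in windows from 250 bases before to 50 after each RefSeq start site, and 27 of the 36 members had 35 such windows. The NRF1 motif stood in 1 of these 35 windows (2.86%), that of Slc25a3, at position -214 from a RefSeq start site that lies inside the gene's span, against 1512 of all 32851 windows (4.6%). TNAAGGTCA, the motif of the estrogen-related receptors, stood in 0 of the 35 windows and in 1.28% of all windows. A match describes letters in a window and not a bound site.

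The 36 genes had means from 0.551 FPKM for Slc25a1 to 3164 for Slc25a4. Values are given in FPKM in the order saline 1, 2 and 3, then ISO 1, 2 and 3. Means of all 6 libraries were above 100 FPKM for 3 members, from 10 to 100 for 15, from 1 to 10 for 16 and under 1 for 2. The summed level of all 36 was 5578, 3891 and 5901 in saline and 3818, 3650 and 2528 in ISO, so no ISO library reached a saline library, although the lowest saline sum lay only slightly above the highest ISO sum. Slc25a4 alone made 78.8%, 73.3% and 79.6% of that sum in saline and 72.7%, 73.4% and 62.7% in ISO. The sum is thus mainly a measure of one gene, and Slc25a3 added a further 8.97% to 16.2%.

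**Figure D1:**
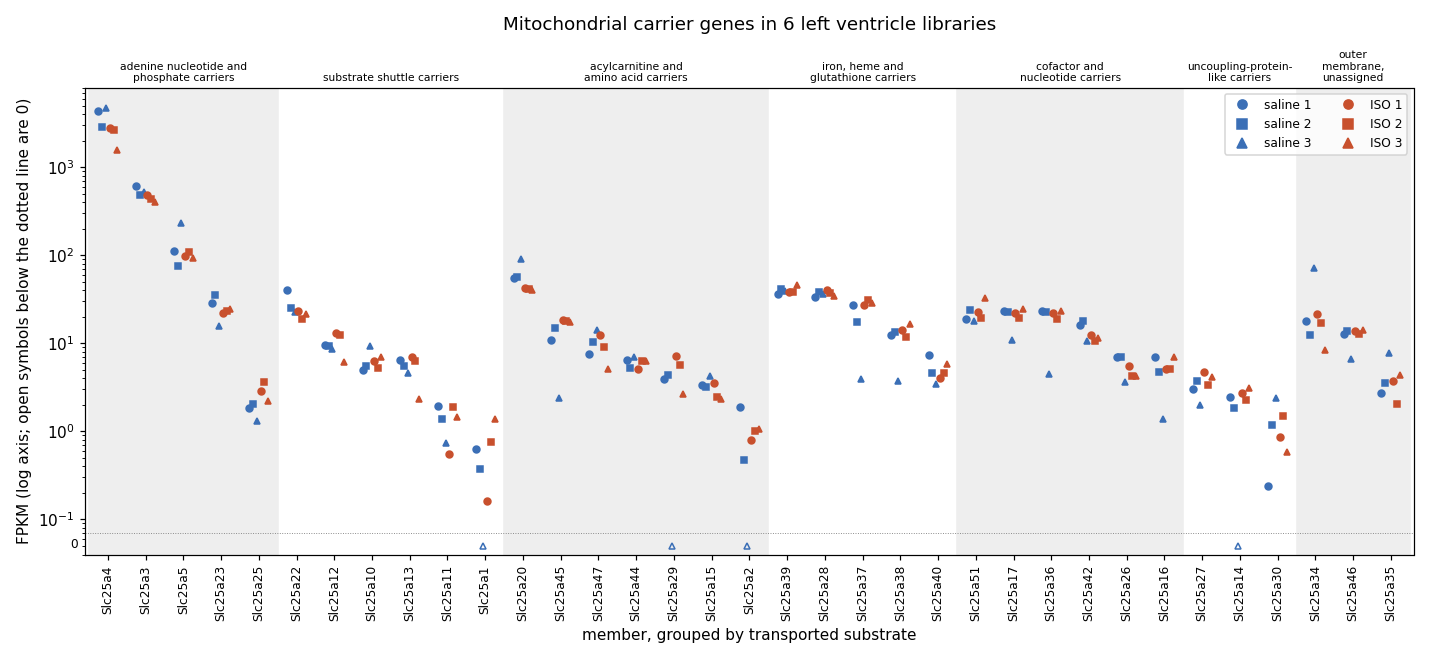
FPKM on a log axis for 35 carrier genes in each of the 6 libraries, ordered by level within 7 groups by transported substrate; open triangles below the dotted line are values of 0. Slc25a4 lies at 1584 FPKM or above in every library, and the 4 members at 0 are at 0 only in saline 3.

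No carrier gene passed the test of ISO against saline. Every gene with a mean of at least 0.5 FPKM was tested with limma on log2(FPKM + 1), and the differences below are log2 fold changes of ISO over saline on that scale, with their standard error (SE). At an adjusted p under 0.05 (Benjamini-Hochberg over 13455 genes), 0 of 36 members and 0 genes in all (0.0%) were called. The smallest adjusted p of any gene was 0.706. At an unadjusted p under 0.05, 0 members were higher and 1, Slc25a20, was lower, against 4.76% and 1.35% of all genes tested. Limma-voom on the recovered reads also called 0 members.

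Of the 36 carriers, 17 were higher and 19 lower in ISO. The 17 include Slc25a1, whose mean reached 0.5 FPKM in ISO (0.764) but not in saline (0.338). Over all genes tested 67.0% were higher and 33.0% lower. The members' median difference was -0.04, beside 0.19 for all genes tested. Scaling the libraries by the median of ratios moved the median of all genes from 0.19 to 0.01 and that of the members to -0.20, with 22 of 36 lower. Without saline 3 the members' median was 0.00 beside 0.06 for all genes, and without ISO 3 it was 0.04 beside 0.17. The members' median thus lay below that of all genes in each of these fits, and its sign changed with the library left out.

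**Figure D2:**
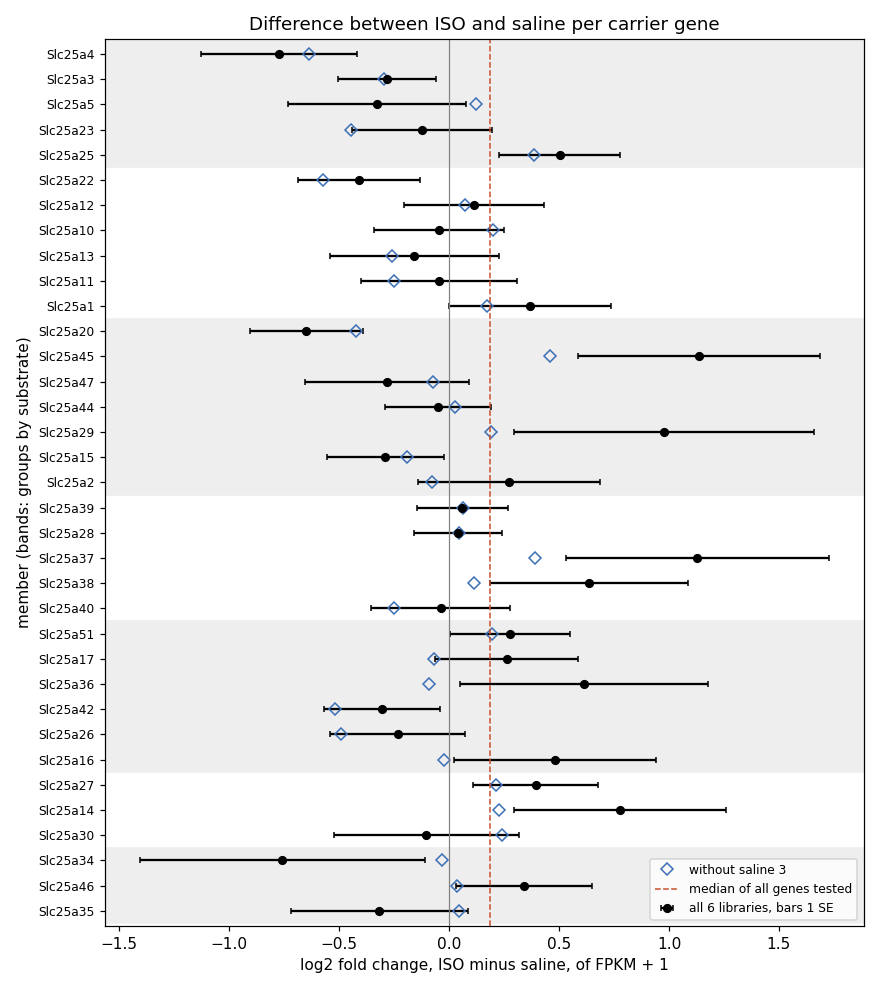
Log2 fold change of FPKM + 1 between ISO and saline for 35 members (black points, bars of 1 SE, n = 3 libraries per group), the same without saline 3 (open diamonds) and the median of all genes tested (dashed line, 0.19). The values run from -0.77 for Slc25a4 to 1.14 for Slc25a45, and most of the larger positive values move toward 0 without saline 3.

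In 3 members every ISO library lay above every saline library (12.4% of all genes tested did) and in 3 every ISO library lay below (3.77% of all genes). The first were Slc25a37, Slc25a45 and Slc25a25, and the second Slc25a4, Slc25a3 and Slc25a20. Leaving out a library can only add to such counts. With saline 1, 2 or 3 left out, 3, 5 and 8 members lay wholly below saline, against 7.19%, 7.4% and 9.56% of all genes tested. With ISO 1, 2 or 3 left out, 5, 3 and 3 did, against 5.84%, 4.6% and 8.16% of all genes. The 8 without saline 3 included Slc25a22, Slc25a23, Slc25a26 and Slc25a42 beside the first 3. Members wholly above saline numbered 6, 5 and 3 without saline 1, 2 or 3 (19.5%, 22.0% and 18.0% of all genes) and 4, 7 and 5 without ISO 1, 2 or 3 (18.8%, 17.0% and 19.4%). After scaling by the median of ratios, 1 member lay wholly above and 6 wholly below, against 7.25% of all genes in either direction. After quantile normalization, 1 lay wholly above and 5 wholly below, against 6.77% and 7.02% of all genes.

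**Figure D3:**
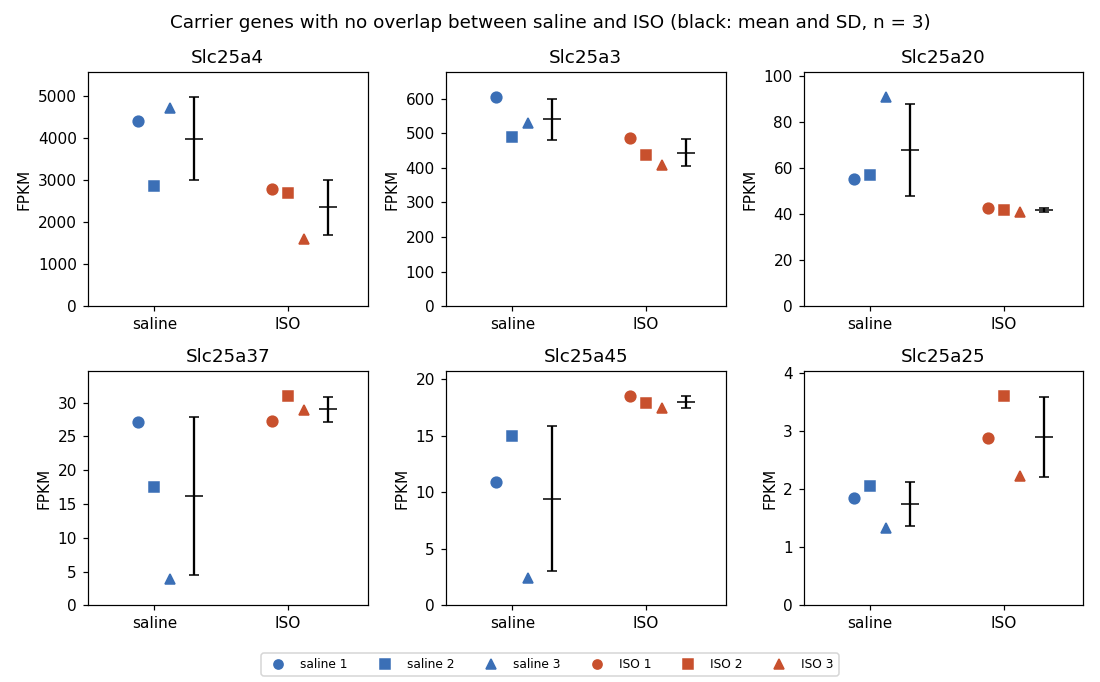
FPKM in each library for the 6 members whose groups did not overlap, with the mean and SD of each group (n = 3 libraries). Slc25a4, Slc25a3 and Slc25a20 are lower in every ISO library, and Slc25a37, Slc25a45 and Slc25a25 are higher, with saline 3 far below the other saline libraries for Slc25a37 and Slc25a45.

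The adenine nucleotide and phosphate carriers supply ATP synthase and carry its product away. Of 5 members, 4 were lower and 1 higher, with a median difference of -0.28, and of -0.30 without saline 3. Slc25a4, the adenine nucleotide translocase of heart and skeletal muscle (8:46207168-46211062 on GRCm38.p6), measured 4394, 2853 and 4699 FPKM in saline and 2774, 2679 and 1584 in ISO. It ranked 10 by level among all genes tested. Saline 2 lay close to ISO 1 and ISO 2, and ISO 3 was the lowest. The means were 3982 ± 990 (SD, n = 3) and 2346 ± 662, a difference of -0.77 (SE 0.36, adjusted p = 0.706 with limma). The difference was negative in all 14 alternative fits, from -1.0 to -0.35. Slc25a4, like Myl2, was highest in saline 3 and lowest in ISO 3; the part of the chamber mix in its values was not tested.

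Slc25a3, the phosphate carrier (10:91116574-91124046), measured 605, 488 and 529 FPKM in saline and 486, 436 and 408 in ISO. Its groups touched, with saline 2 and ISO 1 all but equal. The difference was -0.28 (SE 0.22), from means of 541 ± 59.1 and 444 ± 39.5. Slc25a5, the translocase of most other tissues (X:36795597-36798808), measured 111, 75.7 and 235 FPKM in saline and 98.4, 108 and 93.4 in ISO. Its high value in saline 3 set the sign: the difference was -0.33 (SE 0.40) with all libraries and 0.12 without saline 3. The annotation also lists a transcribed processed pseudogene of Slc25a5, so reads of the gene may be split between copies and its level is uncertain.

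Slc25a23 and Slc25a25 encode exchangers of ATP-magnesium for phosphate, which adjust the nucleotide content of the matrix under the control of calcium. Slc25a23 measured 28.6, 35.9 and 15.9 FPKM in saline and 22.4, 23.0 and 24.3 in ISO. Its ISO values were tightly grouped inside a wide saline range, with a difference of -0.12 (SE 0.32) and of -0.45 without saline 3. Slc25a25 (2:32414487-32451470) was the one member of this group that was higher in ISO, at 1.85, 2.05 and 1.32 FPKM in saline and 2.88, 3.60 and 2.22 in ISO. Its lowest ISO library lay just above its highest saline library. The difference was 0.50 (SE 0.28), and 23 to 133 reads per library stood behind it.

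The muscle translocase exceeded the general one in every library. The ratio of Slc25a4 to Slc25a5 FPKM was 39.5, 37.7 and 20.02 in saline and 28.2, 24.7 and 17.0 in ISO. The mean log2 ratio differed by -0.45 between the groups (exact permutation test, two-sided, p = 0.3, adjusted p = 0.5 over 5 pairs; 3 libraries against 3 cannot go below 0.1). The ranges overlapped, because saline 3 lay among the ISO values. Without saline 3 they did not overlap, and the difference was -0.76 (exact p = 0.2).

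Carriers of the substrate shuttles move reducing power and carbon between cytosol and matrix. Of 6 members, 4 were lower and 2 higher, with a median difference of -0.05. Slc25a22, a glutamate carrier, was the most abundant, at 40.3, 25.4 and 22.4 FPKM in saline and 23.2, 19.1 and 21.5 in ISO. Its difference was -0.41 (SE 0.28) and lay between -0.78 and -0.17 in the alternative fits, with adjusted p from 0.054 to 0.879 in limma. Both the -0.78 and the 0.054 came from sample quality weights, with which 497 genes were called over the whole table. The next lowest adjusted p in limma was 0.503, without saline 3. Without saline 3 no ISO library reached the saline libraries. Slc25a18, the other glutamate carrier, is not a member and was listed at 0.183, 0.179 and 0.0815 FPKM in saline and at 0, 0 and 0.121 in ISO, so no ratio of the pair was tested.

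Slc25a12 and Slc25a13 are the aspartate-glutamate carriers of the malate-aspartate shuttle, and Slc25a12 is the form of excitable tissues. Slc25a12 measured 9.55, 9.34 and 8.54 FPKM in saline and 13.01, 12.3 and 6.08 in ISO. Slc25a13 measured 6.49, 5.46 and 4.62 FPKM in saline and 7.08, 6.29 and 2.33 in ISO. In both genes ISO 1 and ISO 2 lay above all or nearly all saline libraries and ISO 3 below all of them, so that the differences of 0.11 (SE 0.32) and -0.16 (SE 0.38), or 0.07 and -0.26 without saline 3, average libraries on opposite sides of saline. Slc25a12 exceeded Slc25a13 in every library, by a ratio of 1.47, 1.71 and 1.85 in saline and 1.84, 1.96 and 2.61 in ISO. The mean log2 ratio differed by 0.34 (exact permutation test, two-sided, p = 0.2, adjusted p = 0.5).

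Slc25a10, the dicarboxylate carrier, measured 4.94, 5.51 and 9.37 FPKM in saline and 6.30, 5.29 and 6.95 in ISO, a difference of -0.05 (SE 0.30) that was 0.20 without saline 3. Slc25a11, the oxoglutarate-malate partner of the same shuttle, measured 1.97, 1.39 and 0.744 FPKM in saline and 0.560, 1.91 and 1.47 in ISO. Slc25a1, the citrate carrier, measured 0.634, 0.378 and 0 FPKM in saline and 0.162, 0.751 and 1.38 in ISO. Its means were 0.338 in saline and 0.764 in ISO, so it is a member only through its ISO values. The groups overlapped in all 3 genes. The levels of Slc25a11 and Slc25a1 are uncertain, because the gene length that the FPKM imply (3871 and 3356 bases) exceeds the whole RefSeq span of each gene (3513 and 3009 bases). That was so for 2 of 36 members (5.56%) and for 79 of the 12819 genes with a length and a span (0.616%). Only 8 to 75 reads stood behind Slc25a11 and 0 to 26 behind Slc25a1, and 8.92% of the exons of Slc25a11 overlap those of Rnf167.

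Slc25a20 carries acylcarnitines into the matrix for fatty acid oxidation, and the other members of its group are listed as amino acid carriers. Of these 7 members, 4 were lower and 3 higher, with a median difference of -0.05. Slc25a20 (9:108662136-108684642) measured 55.3, 57.2 and 90.9 FPKM in saline and 42.6, 41.9 and 40.9 in ISO. The ISO libraries lay close together and below the lowest saline library. The means were 67.8 ± 20.03 (SD, n = 3) and 41.8 ± 0.860, a difference of -0.65 (SE 0.26). Limma gave it the smallest p of all members, 0.038 before adjustment and 0.706 after. Without saline 3 the difference was -0.42.

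Slc25a45 (19:5877801-5885768) was higher in every ISO library, at 10.9, 15.0 and 2.39 FPKM in saline and 18.5, 17.9 and 17.4 in ISO. The ISO values were as close together as those of Slc25a20, and saline 3 was the low library. The difference was 1.14 (SE 0.55, adjusted p = 0.706 with limma) and 0.46 without saline 3, in which 17 reads were counted. Slc25a29, a carrier of basic amino acids, measured 3.92, 4.36 and 0 FPKM in saline and 7.25, 5.73 and 2.63 in ISO. A count of 0 in saline 3 allows up to 0.550 FPKM, counting 3 reads as the limit. Its difference went from 0.98 (SE 0.68) to 0.19 without saline 3.

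The remaining 4 genes of the group overlapped between saline and ISO. Slc25a47 ranged from 5.09 to 14.3 FPKM over the 6 libraries, and Slc25a44, which imports branched-chain amino acids, from 5.14 to 6.93. Slc25a15 and Slc25a2 are ornithine carriers. Slc25a15 ranged from 2.36 to 4.29 FPKM, and Slc25a2 was listed at 0 in saline 3 and at 0.471 to 1.88 FPKM elsewhere, with at most 25 reads. Differences among these 4 lay between -0.29 and 0.27, and between -0.19 and 0.03 without saline 3.

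Iron, heme and glutathione carriers serve the making of heme and iron-sulfur clusters and the redox balance of the matrix. Of 5 members, 4 were higher and 1 lower, with a median difference of 0.06, which was -0.16 after scaling by the median of ratios. Slc25a37, the mitoferrin of red cell precursors (14:69241848-69285544), measured 27.2, 17.6 and 3.93 FPKM in saline and 27.3, 30.9 and 28.8 in ISO. Saline 1 lay just below the lowest ISO library, and saline 3 far below. The means were 16.2 ± 11.7 (SD, n = 3) and 29.0 ± 1.83, a difference of 1.13 (SE 0.60, adjusted p = 0.706 with limma), and 0.39 without saline 3.

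Slc25a28, the mitoferrin found more widely, differed little, at 33.9, 38.3 and 36.4 FPKM in saline and 40.0, 37.1 and 34.9 in ISO. The difference was 0.04 (SE 0.20). The ratio of Slc25a28 to Slc25a37 was 1.25, 2.18 and 9.25 in saline and 1.46, 1.20 and 1.21 in ISO, a mean log2 ratio that differed by -1.19 (exact permutation test, two-sided, p = 0.2, adjusted p = 0.5) and by -0.36 without saline 3. Slc25a38, which brings in glycine for the first step of heme synthesis, measured 12.4, 13.5 and 3.71 FPKM in saline and 14.3, 11.7 and 16.5 in ISO. Its difference of 0.64 (SE 0.45) was 0.12 without saline 3.

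Slc25a39 and Slc25a40 carry glutathione. Slc25a39 measured 36.1, 41.6 and 38.9 FPKM in saline and 37.97, 38.2 and 45.9 in ISO, and was among the steadiest members (difference 0.06, SE 0.21). Slc25a40 measured 7.43, 4.63 and 3.42 FPKM in saline and 4.09, 4.61 and 5.80 in ISO (difference -0.04, SE 0.32, and -0.25 without saline 3). Their ratio was 4.86, 8.99 and 11.4 in saline and 9.28, 8.28 and 7.91 in ISO, with a difference of 0.10 in the mean log2 ratio (exact permutation test, two-sided, p = 0.9, adjusted p = 0.9) that was 0.36 without saline 3.

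Erythroid markers had higher means in ISO in 9 of 9 cases, with a median difference of 2.03. In 8 of the 9 every ISO library lay above every saline library, against 12.4% of all genes tested. The summed level of the markers was 3257 to 6713 FPKM in saline and 14110 to 29640 in ISO. The highest erythroid sum was in ISO 3, where Slc25a38 was also at its highest and Slc25a37 was not. Alas2, the red cell form of the first heme enzyme, measured 27.9, 20.8 and 12.2 FPKM in saline and 84.4, 73.3 and 162 in ISO. The part of red cell RNA in the values of Slc25a37 and Slc25a38 was not tested.

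**Figure D4:**
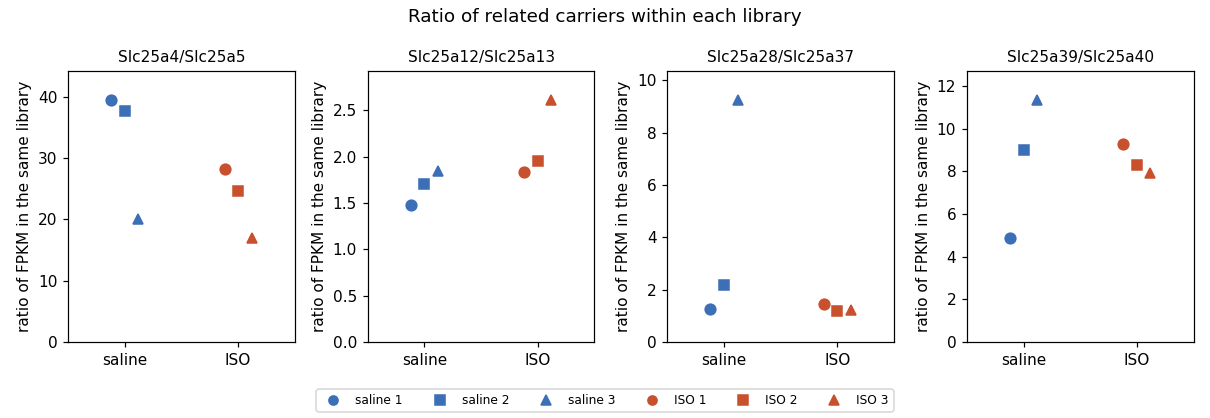
Ratio of FPKM within each library for 4 pairs of carriers with the same or closely related substrates (3 saline and 3 ISO libraries each). Slc25a4 exceeds Slc25a5 at least 17.0-fold in every library, and the ratio of Slc25a28 to Slc25a37 is 9.25 in saline 3 against 1.20 to 2.18 elsewhere.

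Cofactor and nucleotide carriers bring coenzymes and nucleotides across the membrane of the organelle. Of 7 members, 4 were higher and 3 lower. The median difference was 0.26 with all libraries and -0.09 without saline 3. In that fit 6 of 7 were lower, beside 5497 of all 13455 genes tested. Of the 6, Slc25a16 (-0.02), Slc25a17 (-0.07) and Slc25a36 (-0.09) lay near 0. Slc25a51, which imports NAD, measured 18.8, 23.9 and 17.8 FPKM in saline and 22.7, 19.3 and 33.1 in ISO (difference 0.28, SE 0.27). ISO 3 was its one high library, and its groups overlapped.

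Slc25a36, a pyrimidine nucleotide carrier, measured 23.2, 22.7 and 4.51 FPKM in saline and 22.3, 18.9 and 23.4 in ISO. Saline 3 alone set its difference of 0.61 (SE 0.57), which was -0.09 without it. The related Slc25a33 is not a member, at 0.0720, 0.0563 and 0.128 FPKM in saline and 0.0481, 1.07 and 0.0633 in ISO, or 2 to 31 reads per library. Its ratio to Slc25a36 was 0.00311, 0.00248 and 0.0284 in saline and 0.00216, 0.0564 and 0.00271 in ISO. The mean log2 ratio differed by 0.20 (exact permutation test, two-sided, p = 0.9, adjusted p = 0.9) and by 1.32 without saline 3, on these few reads. Slc25a42, which carries coenzyme A, measured 16.3, 17.7 and 10.6 FPKM in saline and 12.6, 10.8 and 11.5 in ISO. Its difference was -0.30 (SE 0.26) and -0.52 without saline 3. Slc25a17, Slc25a26 and Slc25a16 ranged from 11.02 to 24.7, from 3.65 to 7.0 and from 1.37 to 6.99 FPKM, with saline 3 the lowest library in each.

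Carriers related to the uncoupling proteins were low in the ventricle. Slc25a27 and Slc25a14 were higher in ISO and Slc25a30 lower, with overlapping groups, and without saline 3 all 3 were higher. Slc25a27 ranged from 2.00 to 4.69 FPKM, and the length its FPKM imply (13714 bases) is more than 1.5 times the 3935 bases of its annotated exons, so its level is uncertain. Slc25a14 measured 2.44, 1.86 and 0 FPKM in saline and 2.70, 2.28 and 3.09 in ISO. Its difference of 0.78 (SE 0.48) was 0.23 without saline 3, where a count of 0 allows up to 0.552 FPKM. Slc25a30 ranged from 0.239 to 2.38 FPKM.

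Members of the outer membrane or without an assigned substrate were Slc25a34, Slc25a46 and Slc25a35. Slc25a34 measured 18.2, 12.5 and 71.5 FPKM in saline and 21.7, 17.1 and 8.47 in ISO. Saline 3, with 576 reads on the gene, was the one high library, and the difference went from -0.76 (SE 0.65) to -0.03 without it. Slc25a46, which shapes mitochondrial membranes, ranged from 6.58 to 14.2 FPKM with saline 3 the lowest, and Slc25a35 from 2.06 to 7.81 FPKM with saline 3 the highest. Exons of Rangrf on the opposite strand overlap 31.3% of those of Slc25a35. The sources used here do not state whether the counting used strand, so reads in the shared stretch may not have been told apart.

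Carriers were set beside the genes they work with. Of 42 nuclear genes of oxidative phosphorylation tested, 40 were lower and 2 higher. Their median difference was -0.57, and it was -0.41 without saline 3 and -0.37 without ISO 3. Wholly below saline were 21, against 3.77% of all genes tested. In limma 0 passed the adjusted threshold, and 12 were lower at an unadjusted p under 0.05, against 1.35% of all genes tested. The list ran from -1.49 to 0.33. That range held Slc25a4 and Slc25a3 but also the median of all 36 carriers (-0.04). Lying within it thus does not set Slc25a4 and Slc25a3 apart from the family. Relative to the mean log2 FPKM of the oxidative phosphorylation list, Slc25a4 stood at 3.40, 3.30 and 3.21 in saline and 3.29, 3.20 and 2.86 in ISO, and Slc25a20 at -2.89, -2.32 and -2.47 in saline and -2.70, -2.77 and -2.38 in ISO. Slc25a3 stood at 0.54, 0.76 and 0.062 in saline and 0.78, 0.58 and 0.91 in ISO. On this scale the groups of each gene overlapped. For Slc25a4 the overlap came from saline 3 alone. Without it the ISO values lay below saline, though saline 2 (3.30) and ISO 1 (3.29) were all but equal.

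Cardiomyocyte markers were lower in the same libraries. All 13 had lower means in ISO, with a median difference of -0.77. It was -0.50 without saline 3, where 13 were lower, and -0.28 without ISO 3, where 10 were lower. In limma 0 passed the adjusted threshold, and 5 were lower at an unadjusted p under 0.05, against 1.35% of all genes tested. Relative to the mean log2 FPKM of the 13 markers, Slc25a4 stood at 2.22, 2.05 and 2.03 in saline and 1.96, 1.95 and 2.5 in ISO. Slc25a3 stood at -0.64, -0.49 and -1.11 in saline and -0.55, -0.67 and 0.54 in ISO, and Slc25a20 at -4.06, -3.56 and -3.64 in saline and -4.03, -4.02 and -2.75 in ISO. For all 3 genes the groups overlapped on this scale, and ISO 3, where the cardiomyocyte markers were lowest, gave the highest value. For Slc25a4 the overlap came from ISO 3 alone, and its ISO 1 and ISO 2 values lay below every saline value. Slc25a3 and Slc25a20 overlapped without ISO 3 as well. Macrophage markers were higher in 10 of 10 cases (437 to 756 FPKM summed in saline and 943 to 1932 in ISO) and fibroblast markers in 7 of 8 (630 to 1050 and 1538 to 1929). The part of a different mix of cells or heart chambers in the carrier values was not tested.

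Family members under other symbols, the uncoupling proteins and the mitochondrial carrier homologs, numbered 5, of which 2 were higher and 3 lower. Ucp3, the uncoupling protein of muscle, measured 49.0, 26.9 and 22.7 FPKM in saline and 19.9, 17.4 and 14.0 in ISO, with every ISO library below saline and a difference of -0.84 (SE 0.33, adjusted p = 0.706 with limma). Mtch1, an outer membrane homolog, had a difference of 0.41 (SE 0.27). Import machinery that carriers pass through, listed together with subunits that serve other mitochondrial proteins, was lower in 16 of 19 genes, with a median difference of -0.38, and of -0.12 without saline 3. Timm10, a chaperone that escorts carriers across the space between the membranes, measured 32.1, 24.8 and 126 FPKM in saline and 21.8, 16.9 and 15.8 in ISO. Timm10 was among the 4 of these 19 genes wholly below saline, against 3.77% of all genes tested, and its saline 3 value was far above the rest.

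Other transporters of the inner membrane were higher in 14 of 19 genes (median 0.15, and -0.03 without saline 3). The outer membrane channels were split, with Vdac1 at -0.37 and Vdac3 at 0.21. Enzymes that use the carried substrates were lower in 13 of 20 genes (median -0.26, -0.08 without saline 3 and 0.14 without ISO 3, where 7 were lower). Cpt2, which hands acyl groups back to coenzyme A after Slc25a20 has brought in acylcarnitines, measured 52.7, 49.9 and 44.6 FPKM in saline and 33.2, 33.7 and 40.9 in ISO, a difference of -0.44 (SE 0.21, adjusted p = 0.706 with limma). Of these 20 enzyme genes, Cpt2 was the only 1 wholly below saline (3.77% of all genes tested were). In the same list 2 lay wholly above saline (12.4% of all genes tested did). In each of these lists 0 genes passed the adjusted threshold in limma, and Ucp3 and Alas2 were the only ones with an unadjusted p under 0.05.

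**Figure D5:**
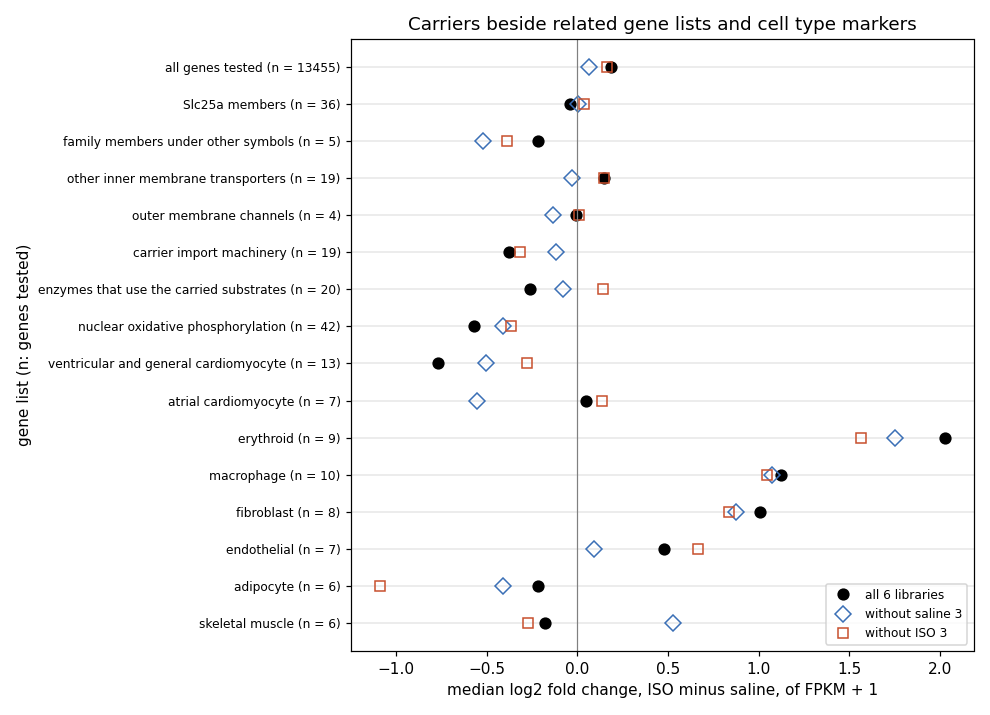
Median log2 fold change of FPKM + 1 between ISO and saline over each gene list, with all 6 libraries (points), without saline 3 (diamonds) and without ISO 3 (squares); n is the number of genes tested. The carriers lie near 0 at -0.04, between the oxidative phosphorylation genes at -0.57 and the erythroid markers at 2.03.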

How the data were processed

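RNA sequencing of poly(A)-selected RNA was measured in 6 left ventricle libraries, and each was placed in its group by its label. The deposited values are FPKM per gene symbol as the authors made them. Tools named in the submitters' processing notes, without role or order, are Cufflinks 2.2.1, HISAT2 2.1.0, DESeq, HTSeq 0.7.2, CASAVA 1.8 and fastp 0.20.0, with the build GRCm38; annotation release and strand setting are not given in the sources used here.

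Because FPKM move in steps of 1 read, read numbers and gene lengths could be recovered: whole reads came out for 100% of 16816 genes above 0 in at least 2 libraries (tolerance 0.0001 reads). For a 1-kilobase gene, 1 read equals 0.101 FPKM in saline 1 and 0.360 in saline 3; limits for counts of 0 cover counting error only. Of 21989 symbols, the 13455 with a mean FPKM of at least 0.5 were tested with limma 3.58.1 in R 4.3.3 on log2(FPKM + 1), which understates changes of low genes, with a mean-variance trend and Benjamini-Hochberg adjustment at 0.05. Both steps were tested on simulated data. The remainder ran in Python 3.11.15 with scipy 1.17.1, pandas 2.3.3 and numpy 2.4.6.

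Pairs of libraries within a group differed by at least 4.63 times sampling noise (median chi-square), so none was treated as a copy of another. Such a difference cannot tell whether the libraries came from separate animals. The family and the lists were taken up with earlier results of these data known; within the family the level rule chose the members. Values in every library are given for the 12 most abundant members, the 6 of smallest p in each direction, those without overlap, the carrier pairs (members or not) and 11 carriers of heart metabolism; of other lists up to 2 genes of smallest p are named. Myl2, Myl7, Acta1, Mylpf, Myh1, Actn3, Tnni2, Tnnt3, Cfd, Adipoq, Plin1, Cidec, Ucp1 and Cidea were named after their values were seen. Positions, gene spans and promoters are RefSeq on GRCm38.p6, and exon lengths and overlaps are from GENCODE. The carriers' proteins were not analysed here, and 1 member, which stays in the counts and medians, is not reported here. The 14 alternatives were each library left out, a lower pseudocount, other filters and scalings, limma-voom on the recovered reads, quality weights and a block for the replicate number.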

Additional observations from a re-analysis of the deposited data

How the results depend on the processing

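In all 14 alternatives 0 carriers passed the adjusted threshold, and between 17 and 22 of 36 were lower. Genes called over the whole table numbered 0 except with sample quality weights (497) and when libraries were left out in turn (0 to 16, the 16 without ISO 1). Members wholly below saline numbered 6 after median-of-ratios scaling (7.25% of all genes), 5 after quantile normalization (7.02%) and 3 to 8 when libraries were left out in turn; members wholly above numbered 1 (7.25%), 1 (6.77%) and 3 to 7. Of 25 named members, 14 kept their direction throughout (6 lower, 8 higher). The 8 include Slc25a1, whose mean reached 0.5 FPKM in ISO (0.764) but not in saline (0.338). Its direction is thus tied to the rule that chose the members and adds no support. Of 349 values, 26 took the other direction. For these the cause was not tested. With median-of-ratios scaling and quantile normalization the log2 fold changes were -0.16 and -0.033 for Slc25a39, -0.18 and -0.054 for Slc25a28, and -0.089 and -0.12 for Slc25a12. With sample quality weights they were 0.048 for Slc25a5, 0.028 for Slc25a34, -0.16 for Slc25a36 and 0.10 for Slc25a10, which was 0.063 with limma-voom. With each library left out in turn they ran from -0.69 to 0.12 for Slc25a5, from -0.026 to 0.11 for Slc25a39, from -0.0070 to 0.088 for Slc25a28, from -0.45 to 0.12 for Slc25a23, from -0.093 to 0.97 for Slc25a36, from -0.061 to 0.43 for Slc25a12, from -0.20 to 0.20 for Slc25a10, from -0.40 to 0.24 for Slc25a13, from -0.25 to 0.22 for Slc25a40 and from -0.25 to 0.21 for Slc25a11. The log2 ratio difference ran from -0.25 to 0.36 for Slc25a39/Slc25a40 and from -1.32 to 1.32 for Slc25a33/Slc25a36, which was -0.33 on FPKM + 1.

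Replicate numbers gave no pairing of saline and ISO libraries (correlations of deviations from the group means 0.010, -0.14 and -0.023 for same-numbered libraries). With the replicate number as a block, 0 genes and 0 members were called and 19 members were lower (median -0.04); the libraries did not each correlate best with their own number. Slc25a1, Slc25a2, Slc25a14 and Slc25a29 had 0 reads in saline 3, the shallowest library. The limit of 3 reads there (0.322, 0.803, 0.552 and 0.550 FPKM) lay below both other saline values for Slc25a1, Slc25a14 and Slc25a29 and between them for Slc25a2.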
